A study of Mus musculus with 17 samples.

Results

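The polyamine metabolism genes described here are Odc1, Amd1, Amd2, Srm, Sms, Sat1, Smox, Oaz1, Oaz2 and Azin1, 10 genes taken by symbol from a table of 47643 gene symbols. All 10 had a row. A filter on low values (at least 1 TPM in at least 3 mice) kept 13305 genes for testing, and 9 of the 10 members passed it, the exception being Amd2. TPM is a read number divided by the length of the gene and by the total of the sample, so levels of different genes can be compared on this scale.

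RNA was sequenced from the muscle portion of the diaphragm, the main muscle of breathing, of 17 male C57BL/6J mice at 4 months of age. Tumor-free mice received mock injections of albumin in saline (Control, n = 5) or rFibcd1 (Control + rFibcd1, n = 5). Mice carrying tumors of Lewis lung carcinoma (LLC) cells under the skin of the flanks received mock injections (LLC, n = 3) or rFibcd1 (LLC + rFibcd1, n = 4). LLC is a single established mouse cell line, and rFibcd1 is a recombinant C-terminal fragment of the mouse protein Fibcd1 given into the peritoneal cavity. The comparisons ask how the diaphragm differs in mice with a tumor, and whether rFibcd1 alters this.

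Polyamines (putrescine, spermidine and spermine) are small, positively charged molecules that bind nucleic acids and are needed for growth and translation. Odc1 makes putrescine from ornithine, Amd1 and its copy Amd2 decarboxylate S-adenosylmethionine to supply the aminopropyl group, Srm makes spermidine and Sms makes spermine. Sat1 acetylates spermidine and spermine for export or oxidation, and Smox oxidizes spermine back to spermidine. The antizymes Oaz1 and Oaz2 bind Odc1 and send it to the proteasome, and Azin1, an inactive relative of Odc1, binds antizyme in its place. In skeletal muscle the pathway is known to respond to androgens and to loss of muscle mass. Several of these proteins are also controlled in translation and turnover, which transcript levels do not show.

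The estimated depth, in units of 1000000 reads, was 50.8 to 54.6 per mouse, and the 9 tested members were covered by between 415 (Srm) and 14112 (Oaz1) estimated reads in a mouse. Summed markers of myofibers were between 40203 and 51048 TPM in every mouse, as the label of the tissue says. Mitochondrially encoded transcripts made up 41.3% to 44.3% of TPM in LLC, 43.7% to 46.5% in LLC + rFibcd1, 45.9% to 48.4% in Control and 45.4% to 50.4% in Control + rFibcd1. The median of all tested genes was higher by 0.16 (log2) in LLC than in Control and by 0.13 in tumor-bearing than in tumor-free mice, so changes are also given relative to this median gene. Of the marker lists, 6 of 6 B cell, 4 of 4 T cell, 4 of 4 neutrophil, 3 of 3 proliferation, 2 of 4 macrophage, 1 of 4 endothelial and 1 of 3 red cell genes were called higher in LLC than in Control. In the same comparison 4 of 8 myofiber genes were called lower, and 0 of 4 adipocyte, 0 of 3 mesothelial and 0 of 3 fibroblast genes were called. In whole tissue, fewer cells of a type and less RNA per cell cannot be told apart.

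Sat1 was the member with the largest change in the tumor comparisons. It was 1.60-fold higher in LLC than in Control and 1.43-fold higher in the 7 tumor-bearing than in the 10 tumor-free mice (on the scale of TPM + 1). Of the 9 members tested, 1 had an adjusted p under 0.05 in LLC against Control (limma, adjusted over all genes), where 35.8% of all genes did (29.7% higher and 6.02% lower). In tumor-bearing against tumor-free mice 2 of the 9, Sat1 and Oaz1, passed, where 44.8% of all genes did (38.8% higher and 5.98% lower), and the call of Oaz1 did not hold under other scalings. As deposited, neither count is above its background. With median-ratio scaling the counts were 3 and 4 of the 9 members, 1 of them higher in each, where 3941 and 4812 of 13305 genes passed. With quantile normalization they were 2 and 4 of the 9, 1 of them higher in each, where 4685 and 5144 genes passed. Without mitochondrially encoded genes they were 1 and 3 of the 9, where 4094 and 5063 of 14406 genes passed. With only 9 members, none of these counts is read as a result about the members. The median change of the members was 0.058 in LLC against Control and 0.059 for the tumor over both treatments, and that of all genes was 0.16 and 0.13.

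**Figure D1:**
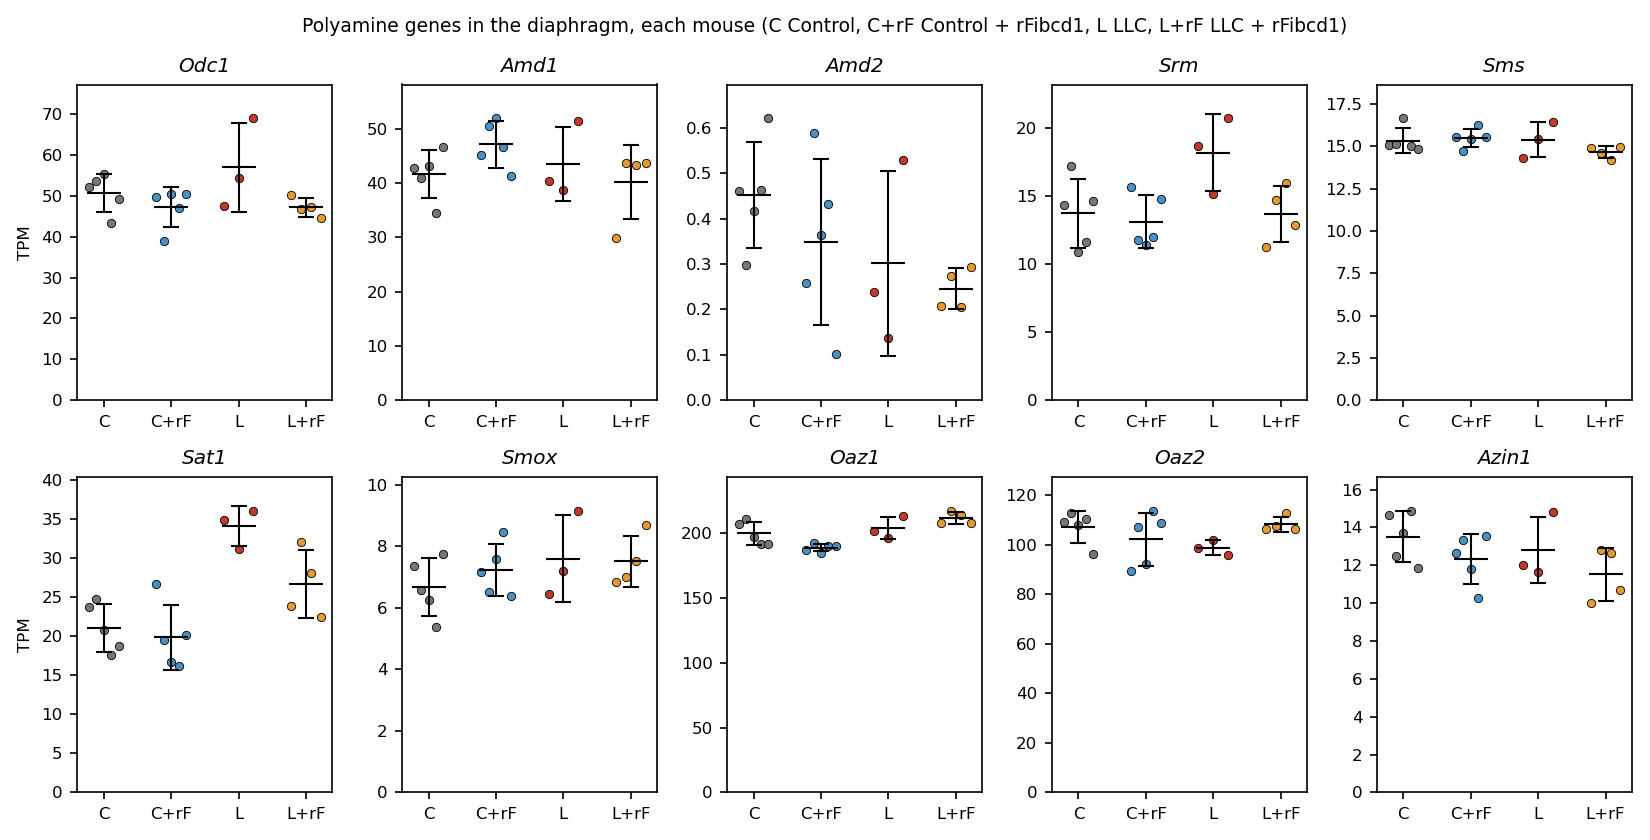
TPM of each of the 10 genes in each of the 17 mice (points), by group, with group means and SD (bars). The 3 LLC mice have Sat1 between 31.2 and 36.1 TPM, above the 5 Control mice (17.6 to 24.7 TPM), while Sms lies between 14.2 and 16.7 TPM in all mice.

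In Control mice the antizymes were the most abundant members. Oaz1 had 199.8 ± 8.93 TPM (SD, n = 5), above 97.0% of all tested genes, and Oaz2 had 107 ± 6.47 TPM. The enzymes that feed the pathway followed, Odc1 with 50.7 ± 4.67 TPM and Amd1 with 41.6 ± 4.46 TPM, and the values of this pair overlapped between mice. Sat1 stood at 21.1 ± 3.08 TPM. Sms (15.3 ± 0.745 TPM), Srm (13.7 ± 2.54 TPM) and Azin1 (13.5 ± 1.33 TPM) came next, and neighbors among them overlapped. Smox had 6.66 ± 0.938 TPM, above 47.1% of tested genes, and Amd2 had 0.452 ± 0.116 TPM. The other neighbors in this order did not overlap between the 5 mice.

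Members also differed in how much mice of a group varied. Oaz1 and Sms had residual SDs of 0.047 and 0.059 (log2), and 1.69% and 5.16% of tested genes varied less than they did. Sat1 and Srm each had 0.22, against a median of 0.15 over all tested genes. A log2 change of a given size was therefore estimated more precisely for Oaz1 than for Sat1 or Srm.

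Of the genes of polyamine breakdown, Sat1 (chrX:155213132-155216449, minus strand, GRCm38) encodes the acetyltransferase regarded as its rate-limiting enzyme. Its level was 23.7, 24.7, 20.8, 17.6 and 18.7 TPM in the Control mice and 34.9, 31.2 and 36.1 TPM in the LLC mice. All 3 LLC mice were above all 5 Control mice, and 40.2% of all tested genes had groups without overlap here. The change was 0.68 ± 0.15 (log2, SE; 95% interval 0.35 to 1.00; adjusted p = 0.0111 by limma), or 0.51 relative to the median gene. The exact two-sided permutation test over the 56 splits of these mice gave an unadjusted p of 0.0179, the smallest it can give.

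With rFibcd1, the levels of Sat1 were 23.9, 32.1, 28.1 and 22.4 TPM in LLC + rFibcd1 and 26.7, 19.5, 16.7, 16.2 and 20.1 TPM in Control + rFibcd1. LLC + rFibcd1 overlapped with each of the other groups. The difference between LLC + rFibcd1 and LLC was -0.35 ± 0.16 (unadjusted p = 0.0418, adjusted p = 0.212 by limma). Between LLC + rFibcd1 and Control + rFibcd1 it was 0.41 ± 0.14 (adjusted p = 0.0762), and without Control + rFibcd1 replicate 1 it was 0.52 (adjusted p = 0.0133). Over all 17 mice, Sat1 was higher in tumor-bearing mice by 0.52 ± 0.10 (95% interval 0.30 to 0.74; adjusted p = 0.00261 by limma), or 0.39 relative to the median gene, and this passed whichever mouse was left out.

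Markers of several cell types, B cells and macrophages among them, were high in the groups and mice with the most Sat1. The summed TPM of 6 B cell markers lay between 226 and 287 in LLC, 2.45 and 97.1 in Control, 3.47 and 139 in Control + rFibcd1, and 18.3 and 282 in LLC + rFibcd1. For 4 macrophage markers the sums were 65.8 to 75.9 in LLC, 28.2 to 43.9 in Control, 16.9 to 71.7 in Control + rFibcd1 and 35.9 to 72.5 in LLC + rFibcd1. In Control + rFibcd1 the mouse with the most Sat1 (replicate 1) had the highest sum of both lists, and in LLC + rFibcd1 the pair with the most Sat1 (replicates 2 and 3) had the highest sums. The same mice also had the highest sums of T cell, proliferation and adipocyte markers in their groups. This was not so for neutrophil, red cell and fibroblast markers. Neutrophil markers were not lower with rFibcd1, with sums of 43.8 to 104 in LLC and 54.1 to 203 in LLC + rFibcd1, against 1.68 to 14.0 in Control and 2.85 to 77.3 in Control + rFibcd1. Between the rFibcd1 groups, 4 of 4 neutrophil genes were called higher with the tumor and 0 of 6 B cell and 0 of 4 macrophage genes were called. No marker of these lists was at 0 in every mouse of a group. When the B cell score entered the model, the Sat1 change was 0.30 in LLC against Control (adjusted p = 0.262) and 0.26 over all mice with against all without a tumor (adjusted p = 0.0634 by limma). With this score, calls over all 13305 genes went from 4759 to 9 and from 5963 to 647 in these comparisons. The part of macrophages, neutrophils and the other cell types in the result was not tested.

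**Figure D2:**
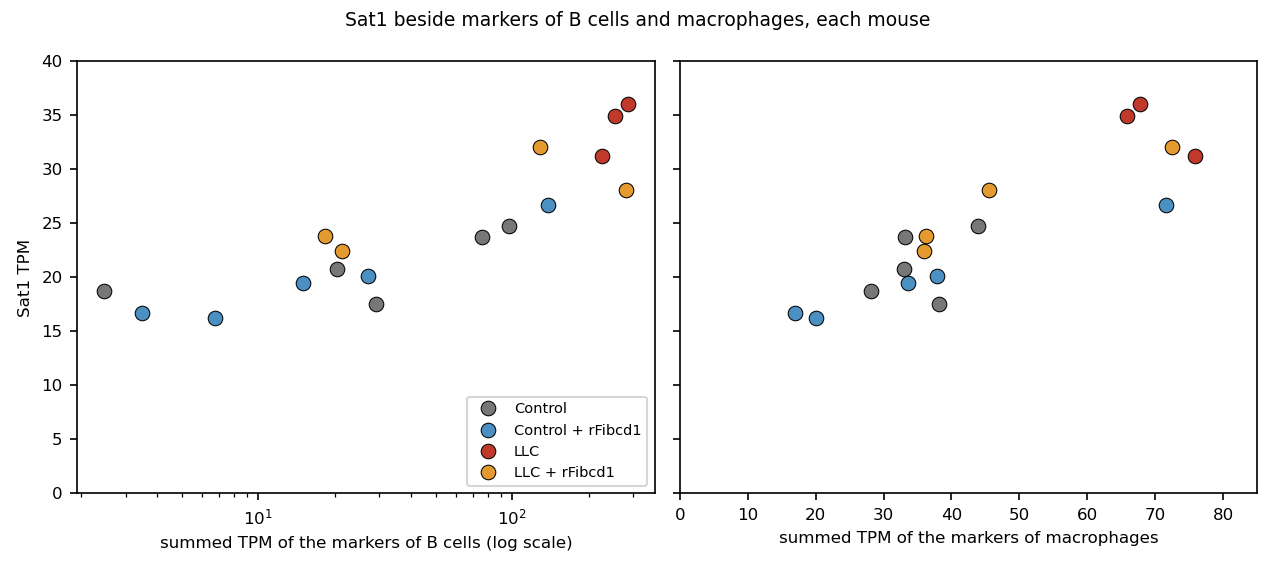
Sat1 (TPM, vertical axis) against the summed TPM of 6 B cell markers (log axis) and of 4 macrophage markers in each of the 17 mice, by group. Control + rFibcd1 replicate 1, with 26.7 TPM of Sat1 and 139 TPM of B cell markers, has the highest values of both among the tumor-free mice.

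The Sat1 call in LLC against Control also rested on LLC replicate 3. Without this mouse the change was 0.63 (adjusted p = 0.0717), and 24 of 13195 genes passed in the whole table. With the rank test of Dunn the adjusted p of Sat1 was 0.118, but that test called 0 of 13305 genes in LLC against Control.

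Promoter windows of the members that passed, Sat1 and Oaz1, are shown for their sequence context. Each holds 300 bases, most of them before the RefSeq start (GRCm38.p6), 5′ to 3′ on the strand of the gene, and capitals mark the match to TATAAA in Oaz1. Sat1 is at chrX:155216400-155216699 (minus strand) and Oaz1 at chr10:80826406-80826705 (plus strand).
Sat1: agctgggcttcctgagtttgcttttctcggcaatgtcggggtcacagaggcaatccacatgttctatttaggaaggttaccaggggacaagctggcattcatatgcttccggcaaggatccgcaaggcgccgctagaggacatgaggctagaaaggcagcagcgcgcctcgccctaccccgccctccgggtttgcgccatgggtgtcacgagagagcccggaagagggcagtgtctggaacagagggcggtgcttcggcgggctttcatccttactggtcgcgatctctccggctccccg
Oaz1: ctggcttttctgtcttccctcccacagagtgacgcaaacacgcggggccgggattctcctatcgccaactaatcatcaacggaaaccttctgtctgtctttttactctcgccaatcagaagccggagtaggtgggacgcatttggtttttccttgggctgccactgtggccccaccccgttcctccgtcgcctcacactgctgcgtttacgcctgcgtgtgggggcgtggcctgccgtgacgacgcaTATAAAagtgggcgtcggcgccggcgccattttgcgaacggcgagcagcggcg
Both strands were searched for 4 motifs. RefSeq windows were matched for 8 of the 10 members, 9 windows in all since Sms has a pair, and Srm and Azin1 had no entry. The TATA box TATAAA was in 1 of the 9 windows (Oaz1, first base at -3) and in 13.6% of all 32851 windows of this length. The E-box CACGTG, bound by Myc and its partners, was in 1 of the 9 (Sms, at -196) and in 7.15% of all. The CCAAT box was in 3 of the 9 (Oaz1, Amd2 and Sms) and in 37.4% of all. The element TATGACTAA, known as polyamine-responsive from human SAT1, was in 0 of the 9 and in 0.0974% of all. These are matches of letters only.

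Smox (chr2:131491496-131525922, plus strand), the spermine oxidase, is known to fall in several forms of muscle atrophy. Its values were 5.37 to 7.76 TPM in Control, 6.39 to 8.45 in Control + rFibcd1, 6.44 to 9.16 in LLC and 6.83 to 8.67 in LLC + rFibcd1, and all groups overlapped. The change in LLC against Control was 0.16 ± 0.12 (95% interval -0.094 to 0.42; adjusted p = 0.294), the same as that of the median gene to 2 decimals. Within a mouse, Sat1 stood at 3.20 ± 0.489 times the TPM of Smox in the 5 Control mice (SD) and 4.57 ± 0.766 times in the 3 LLC mice (SD). This ratio did not overlap between these groups, and neither did Sat1 alone. The ratio was 2.59 to 4.58 in LLC + rFibcd1, which overlapped with both, and 1.92 to 3.73 in Control + rFibcd1.

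Of the antizymes and their inhibitor, Oaz1 (chr10:80826656-80829290, plus strand) was at 207, 211, 197, 192 and 192 TPM in Control and at 187, 192, 185, 190 and 190 TPM in Control + rFibcd1. In LLC it was at 202, 196 and 213 TPM, and in LLC + rFibcd1 at 208, 217, 214 and 207 TPM. LLC and Control overlapped, while all LLC + rFibcd1 mice were above all Control + rFibcd1 mice, as 8.91% of all genes had no overlap there. As deposited, the difference of this last pair was 0.16 ± 0.035 (adjusted p = 0.0126 by limma, passed by 8.06% of all genes), or 0.049 relative to the median gene. It was 0.029 with median-ratio scaling, 0.049 with quantile normalization and 0.095 once mitochondrially encoded genes were left out of the total, and passed with none of these.

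In tumor-bearing against tumor-free mice, Oaz1 was higher by 0.10 ± 0.026 as deposited (adjusted p = 0.00819 by limma), but lay at -0.030 relative to the median gene. The sign turned with median-ratio scaling (-0.050) and quantile normalization (-0.027), and the change was 0.064 when the B cell score entered the model (adjusted p = 0.215). In tumor-free mice the difference with rFibcd1 was -0.080 ± 0.033 (unadjusted p = 0.0293, adjusted p = 0.927). Synthesis of Oaz1 protein needs a shift of the reading frame that polyamines promote, which these values do not measure. Its site is shown from bases 1599 to 1628 of the GENCODE transcript Oaz1-206, with the stop codon of the first frame in capitals.
Oaz1-206: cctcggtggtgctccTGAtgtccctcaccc

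Oaz2 (chr9:65668001-65690300, plus strand), the other antizyme, was at 98.6, 102 and 95.9 TPM in LLC and at 106, 107, 113 and 106 TPM in LLC + rFibcd1. These groups did not overlap, as was so for 14.6% of all genes, and Control (96.2 to 113 TPM) overlapped with both. The difference of 0.13 ± 0.076 did not pass (adjusted p = 0.282 by limma). From Control to LLC the change was -0.12 ± 0.073 (adjusted p = 0.213) as deposited and -0.30 with median-ratio scaling (adjusted p = 0.0404).

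Azin1 (chr15:38487427-38519266, minus strand), which frees Odc1 from antizyme, was at 14.7, 12.5, 13.7, 14.9 and 11.9 TPM in Control and 12.6, 13.3, 11.8, 10.3 and 13.5 TPM in Control + rFibcd1. It was at 12.01, 11.7 and 14.8 TPM in LLC and 9.99, 12.8, 12.7 and 10.7 TPM in LLC + rFibcd1. The groups overlapped. In tumor-bearing against tumor-free mice the change was -0.091 ± 0.073 as deposited (adjusted p = 0.318 by limma), or -0.22 relative to the median gene. It passed with median-ratio scaling (-0.23, adjusted p = 0.00821), quantile normalization (-0.27, adjusted p = 0.00325) and rescaling without mitochondrially encoded genes (-0.18, adjusted p = 0.0480), so that the call for Azin1 depended on the scaling. In LLC against Control the change of Azin1 was -0.072 as deposited (adjusted p = 0.617), and it passed with median-ratio scaling (-0.24, adjusted p = 0.0414) and quantile normalization (-0.31, adjusted p = 0.0136).

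**Figure D3:**
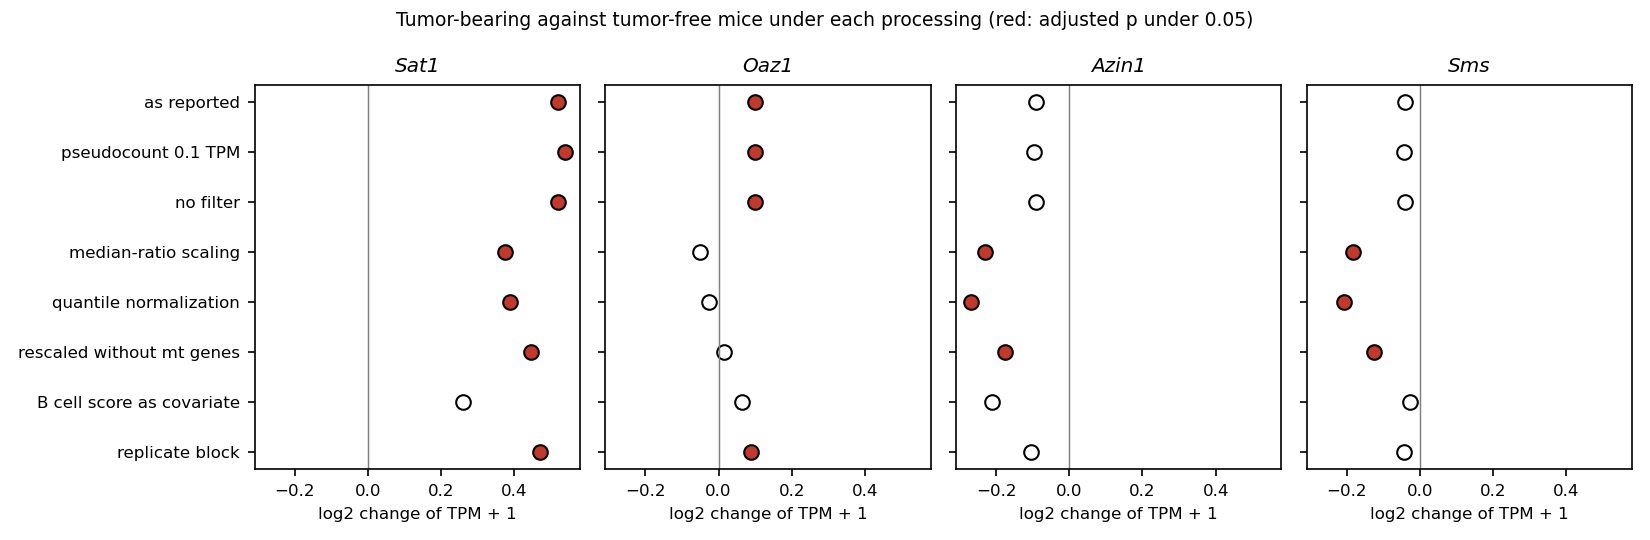
Log2 change of Sat1, Oaz1, Azin1 and Sms in tumor-bearing against tumor-free mice under 8 ways of processing, with red points for an adjusted p under 0.05. Sat1 is above 0 throughout and loses its call with the B cell score (0.26), Oaz1 turns below 0 with median-ratio scaling and quantile normalization, and Azin1 and Sms are called lower under the 3 scalings.

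Ratios of members within a mouse are left as they are by a scaling that multiplies each sample by a constant, though not by quantile normalization. Odc1 stood at 0.254 ± 0.0194 of the TPM of Oaz1 in Control (mean and SD of 5 mice), while the LLC mice had 0.279 ± 0.0443 (3 mice) and the LLC + rFibcd1 mice 0.223 ± 0.0128 (4 mice), with overlap between Control and each tumor group. Sat1 per Odc1, a ratio of breakdown to synthesis transcripts, was 0.375 to 0.461 in Control, 0.331 to 0.537 in Control + rFibcd1, 0.523 to 0.735 in LLC and 0.475 to 0.688 in LLC + rFibcd1. Both tumor groups lay above Control without overlap, and both overlapped with Control + rFibcd1. These ratios are descriptions and were not tested. Sat1 alone did not overlap between LLC and Control either, as was so for 40.2% of all genes.

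Of the genes of polyamine synthesis, Odc1 (chr12:17544794-17551505, plus strand), the first enzyme of the pathway, was at 52.0, 53.6, 55.3, 43.4 and 49.1 TPM in Control and at 47.5, 54.4 and 68.9 TPM in LLC. LLC replicate 3 was the highest of all 17 mice, and the groups overlapped. The change was 0.15 ± 0.11 (adjusted p = 0.282 by limma), or -0.0074 relative to the median gene. In LLC + rFibcd1, with 44.7 to 50.2 TPM, the difference from LLC was -0.25 ± 0.12 (unadjusted p = 0.0466, adjusted p = 0.218). In fits that left out a mouse, the former change was 0.0091 to 0.27 and the latter -0.37 to -0.11, and neither passed in any.

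Srm (chr4:148591503-148594993, plus strand), the spermidine synthase, was at 14.3, 17.2, 10.8, 11.6 and 14.6 TPM in Control and 18.7, 15.1 and 20.7 TPM in LLC. It was at 11.3, 14.7, 15.9 and 12.8 TPM in LLC + rFibcd1 and 15.7, 11.8, 11.4, 11.97 and 14.7 TPM in Control + rFibcd1. LLC replicates 1 and 3 were above all other mice, and replicate 2 was within the range of the other groups. The change in LLC against Control was 0.39 ± 0.15 (95% interval 0.065 to 0.71; adjusted p = 0.0571 by limma), and in LLC + rFibcd1 against LLC -0.39 ± 0.16 (adjusted p = 0.205). The first of these passed in 3 of 17 fits that left out a mouse, without Control replicate 2 (adjusted p = 0.0243), LLC replicate 2 (adjusted p = 0.0328) or Control + rFibcd1 replicate 1 (adjusted p = 0.0486).

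Sms (chrX:157443855-157492287, minus strand), the spermine synthase, was at 14.8 to 16.7 TPM in Control, 14.7 to 16.2 in Control + rFibcd1, 14.3 to 16.4 in LLC and 14.2 to 14.9 in LLC + rFibcd1. The change in tumor-bearing against tumor-free mice was -0.040 ± 0.033 (adjusted p = 0.333 by limma), or -0.17 relative to the median gene. It passed with median-ratio scaling (-0.18), quantile normalization (-0.21) and rescaling without mitochondrially encoded genes (-0.12).

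Amd1 (chr10:40287458-40302186, minus strand), the S-adenosylmethionine decarboxylase, was at 34.5 to 46.6 TPM in Control, 41.2 to 51.9 in Control + rFibcd1 and 38.7 to 51.3 in LLC. In LLC + rFibcd1, 3 mice had 43.4 to 43.7 TPM and replicate 1 had 29.9 TPM, the lowest of all mice. Its changes lay between -0.29 and 0.18 over the 7 comparisons, the smallest adjusted p being 0.206. In tumor-bearing against tumor-free mice the change was -0.098 ± 0.089 as deposited (adjusted p = 0.378 by limma), -0.25 with median-ratio scaling (adjusted p = 0.0434) and -0.22 with quantile normalization (adjusted p = 0.0484). As deposited, it was -0.15 to -0.024 in fits that left out a mouse and passed in none of them.

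Amd2 (chr10:35708675-35711892, minus strand) is a near-identical copy of Amd1, with 1 exon where the transcript Amd1-201 has 8. The transcripts were identical at 3190 of 3204 aligned bases (99.6%), and 72.9% of the 100-base windows of Amd2-201 occurred unchanged in Amd1-201. A stretch with a single difference (in capitals) is shown because it lets a reader see how few bases can tell reads of the pair apart. It covers bases 1079 to 1168 of Amd1-201 and 1084 to 1173 of Amd2-201.
Amd1-201: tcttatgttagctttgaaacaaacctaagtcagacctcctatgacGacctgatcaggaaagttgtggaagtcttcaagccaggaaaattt
Amd2-201: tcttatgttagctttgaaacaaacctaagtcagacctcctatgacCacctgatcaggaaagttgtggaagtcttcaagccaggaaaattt
Amd2 was listed at 0.101 to 0.621 TPM, or 8.04 to 48.3 estimated reads in a mouse, and stood at 0.00245 to 0.0134 of the TPM of Amd1. How the counting divided shared reads between them is not given in the sources used here, so the level of Amd2 is uncertain. With both summed, the change was 0.052 in LLC against Control and -0.10 for the tumor over both treatments, and no call changed. Their promoter windows shared a run of 48 bases, which begins at the annotated start of Amd2 and 2 bases past that of Amd1 and so lies in the transcribed part.

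**Figure D4:**
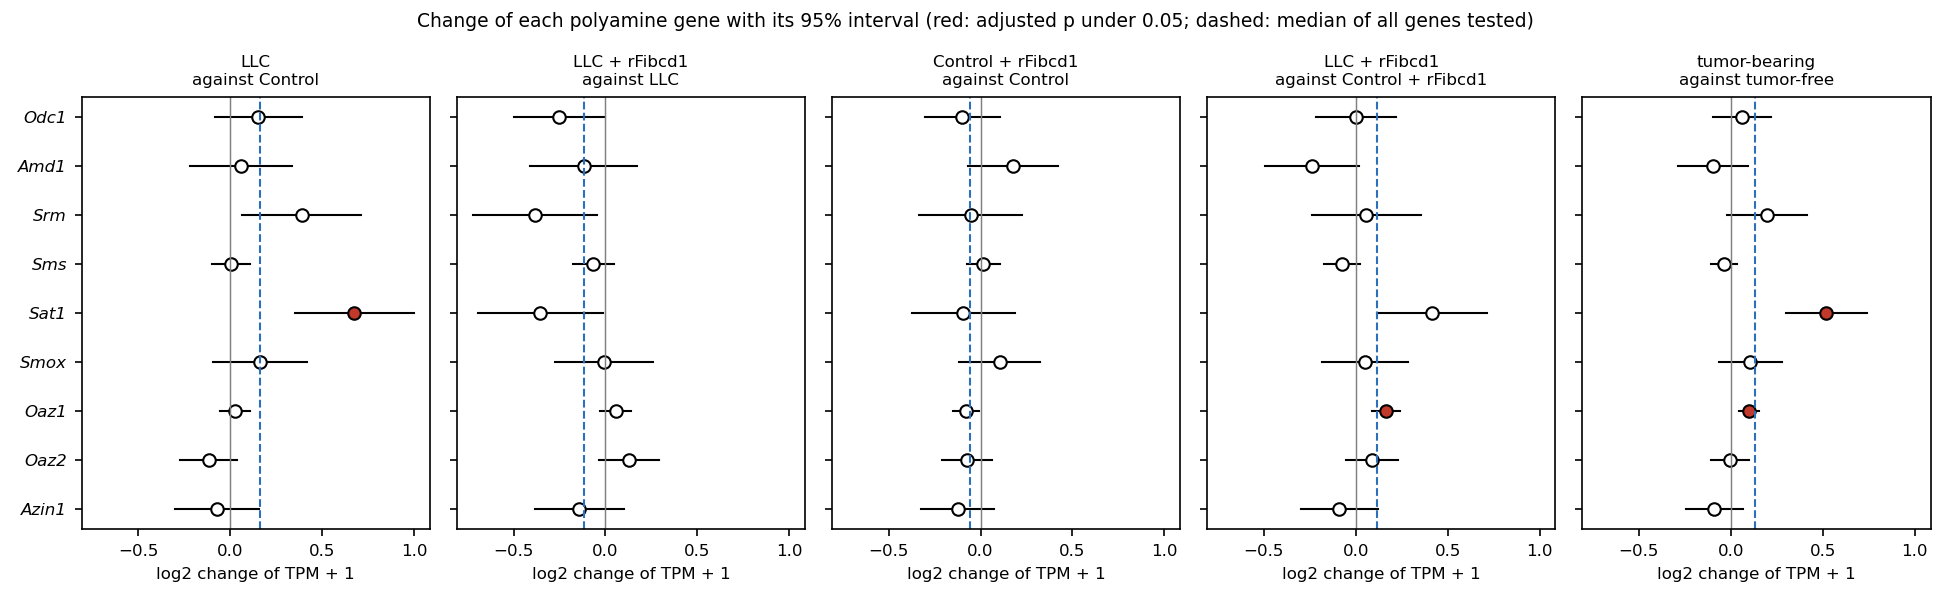
Log2 change with 95% interval of the 9 tested members in 5 comparisons, with red points for an adjusted p under 0.05 and a dashed line at the median of all tested genes. Sat1 in LLC against Control (0.68) and for the tumor over both treatments (0.52) lies to the right of the line, while the called points of Oaz1 (0.16 and 0.10) lie near it and are not called with median-ratio scaling or quantile normalization.

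For rFibcd1 in mice with tumors, 0 of 9 members passed in LLC + rFibcd1 against LLC (limma), where 0.113% of all genes did. At an unadjusted p under 0.05 there were 3 of 9 members (Srm, Sat1 and Odc1, each with a negative change) and 22.7% of all genes. The median change of the members was -0.12 and that of all genes -0.11. For Smox the difference was -0.0080 with a 95% interval of -0.28 to 0.26, and for Sat1 the interval was -0.69 to -0.015. In tumor-free mice 0 of 9 members and 0 of all genes passed in Control + rFibcd1 against Control, and 1 member (Oaz1) and 4.39% of all genes had an unadjusted p under 0.05. Dunn's test called 0 of 13305 genes in each of these comparisons and so bears on no member.

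The interaction, which asks whether the tumor difference itself changed with rFibcd1, called 0 of 9 members and 0 of all genes by limma, with 1 member (Oaz1) and 8.58% of all genes at an unadjusted p under 0.05. For Sat1 it was -0.26 (95% interval -0.70 to 0.18; adjusted p = 0.685) and for Oaz1 0.14 (95% interval 0.025 to 0.25; adjusted p = 0.425). In LLC + rFibcd1 against Control 0 of 9 members passed by limma, where 3.08% of all genes did, and Sat1 (0.32), Oaz1 (0.084) and Azin1 (-0.21) had an unadjusted p under 0.05, as had 19.9% of all genes. These comparisons share groups of mice and are not independent.

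A wider list of 38 genes around the pathway was read by role, and 29 of them passed the filter. In LLC against Control 7 of the 29 were called higher and 2 lower, where 29.7% and 6.02% of all genes were. Over all mice with a tumor against all without one, 11 were higher and 2 lower, where 38.8% and 5.98% of all genes were. The latter split was 6 higher and 4 lower with median-ratio scaling and 4 higher and 7 lower with quantile normalization. When the B cell score entered the model, 0 of 29 and 2 of 29 passed in these comparisons, where 9 and 647 of all 13305 genes did. Without LLC replicate 3, 0 of 29 passed in LLC against Control, where 24 of 13195 genes did. In LLC + rFibcd1 against LLC 0 of 29 passed by limma, with 7 at an unadjusted p under 0.05, as were 22.7% of all genes.

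Among 8 tested transport genes, 3 were called higher in LLC than in Control, where 29.7% of all genes were. Slc3a2, the heavy chain of several amino acid exchangers, was at 30.9 to 33.8 TPM in LLC, 15.1 to 22.3 in Control, 12.6 to 24.8 in Control + rFibcd1 and 21.4 to 29.4 in LLC + rFibcd1. LLC lay above the other 3 groups without overlap. Of all genes, 40.2% had no overlap between LLC and Control and 14.6% had none between LLC and LLC + rFibcd1. Its change was 0.80 ± 0.17 in LLC against Control (adjusted p = 0.0102) and 0.66 ± 0.11 for the tumor over both treatments (adjusted p = 0.00138 by limma). Slc7a1, the cationic amino acid carrier that brings in arginine and ornithine, was higher in LLC than in Control by 0.63 ± 0.17 (adjusted p = 0.0162), and Atp13a2, a lysosomal polyamine exporter, by 0.43 ± 0.087 (adjusted p = 0.00969). These 3 passed in LLC against Control under each of the 3 scalings and not with the B cell score. Slc7a2, another cationic amino acid carrier, was lower in tumor-bearing than in tumor-free mice by 0.51 ± 0.11 with no overlap between the groups (adjusted p = 0.00336), where 2.26% of all genes had none. As deposited, the change of Slc7a2 was -0.19 in LLC against Control (adjusted p = 0.349) and -0.78 between the rFibcd1 groups (adjusted p = 0.00660), and over both treatments the adjusted p was 0.0758 with the B cell score. In LLC against Control it was -0.36 with median-ratio scaling (adjusted p = 0.118) and -0.31 without mitochondrially encoded genes (adjusted p = 0.170). With quantile normalization it was -0.48 and passed (adjusted p = 0.0419 by limma).

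Of the 2 further acetyltransferases and oxidases tested, Paox, the oxidase that takes acetylated polyamines made by Sat1, was higher in LLC than in Control by 0.52 ± 0.16 (adjusted p = 0.0259 by limma). Under the 3 scalings the Paox change stayed positive and missed the threshold, at 0.44 without mitochondrially encoded genes (adjusted p = 0.0514), 0.35 with median-ratio scaling (adjusted p = 0.0609) and 0.26 with quantile normalization (adjusted p = 0.133). Of 4 genes of the hypusine branch, Eif5a, the translation factor that carries the spermidine-derived residue hypusine, was at 212 to 228 TPM in tumor-bearing and 192 to 208 TPM in tumor-free mice. The change of Eif5a was 0.14 ± 0.025 as deposited (adjusted p = 0.00137), 0.012 relative to the median gene and -0.0079 with median-ratio scaling, so its direction depended on the scaling.

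Of 4 known regulators tested, Myc, which activates Odc1, was at 5.29 to 6.18 TPM in LLC and 1.65 to 4.03 in Control, and the change was 0.92 ± 0.26 (adjusted p = 0.0186 by limma). With the B cell score it was 0.28 (adjusted p = 0.527), and Myc passed under each of the 3 scalings. Cdkn1a, a cell cycle inhibitor, was higher in tumor-bearing mice by 0.90 ± 0.23 (adjusted p = 0.00811), and by 0.89 with the B cell score (adjusted p = 0.1002 by limma). The Cdkn1a change was 0.37 in LLC against Control (adjusted p = 0.407) and 1.29 between the rFibcd1 groups (adjusted p = 0.0233). The latter call held in 13 of 17 fits without 1 mouse, and without mitochondrially encoded genes (1.25, adjusted p = 0.0416). It was missed with median-ratio scaling (1.16, adjusted p = 0.0551), quantile normalization (1.16, adjusted p = 0.0517) and the B cell score (1.28, adjusted p = 0.0513). Its values were 30.7 to 47.5 TPM in LLC + rFibcd1, 15.99 to 24.6 in LLC, 13.3 to 18.2 in Control and 8.98 to 34.7 in Control + rFibcd1. LLC + rFibcd1 and LLC did not overlap for Cdkn1a, as was so for 14.6% of all genes, and the difference of 0.94 ± 0.36 did not pass (adjusted p = 0.198).

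Of 8 genes of S-adenosylmethionine supply and methylthioadenosine salvage, 3 were called higher and 1 lower in tumor-bearing than in tumor-free mice, where 38.8% and 5.98% of all genes were. Mat2b, the regulatory subunit of a methionine adenosyltransferase, was lower by 0.15 ± 0.034 (adjusted p = 0.00539 by limma), and by more under each of the 3 scalings, the largest change being -0.29. The genes called higher were Mri1 (0.16), Mtap (0.15) and Enoph1 (0.15), all of the salvage of methylthioadenosine, the by-product of Srm and Sms, and all of them turned negative with quantile normalization. Without 1 mouse the call held in 17 of 17 fits for Mri1, 15 of 17 for Enoph1 and 4 of 17 for Mtap (largest adjusted p 0.154). Of 3 genes of ornithine and arginine supply, Gatm was called higher (0.33, adjusted p = 0.00553 by limma), and in 17 of 17 fits without 1 mouse. It passed with median-ratio scaling (0.21, adjusted p = 0.0394) and without mitochondrially encoded genes (0.29, adjusted p = 0.0199). It did not pass with quantile normalization (0.11, adjusted p = 0.273) or the B cell score (0.23, adjusted p = 0.149). Oat, which interconverts ornithine and glutamate semialdehyde, was lower in LLC than in Control by 0.18 ± 0.064 (adjusted p = 0.0438), a call that held in 9 of 17 fits that left out a mouse. For the tumor over both treatments the change of Oat was -0.055 as deposited (adjusted p = 0.305 by limma). It passed there with median-ratio scaling (-0.21, adjusted p = 0.0243), quantile normalization (-0.18, adjusted p = 0.0171) and without mitochondrially encoded genes (-0.14, adjusted p = 0.0491). In LLC against Control, Oat also passed under these scalings, at -0.36, -0.34 and -0.29, respectively.

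**Figure D5:**
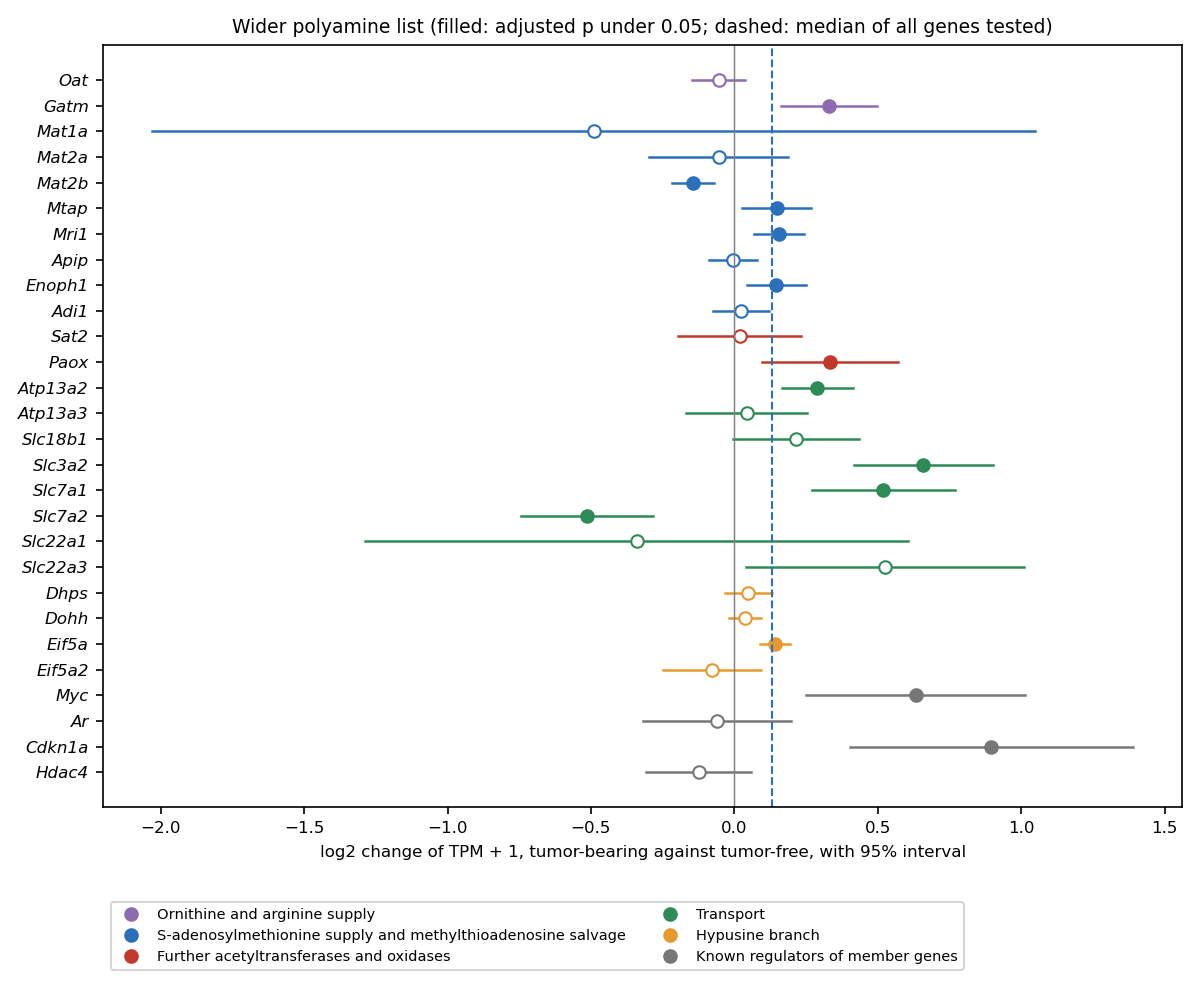
Log2 change with 95% interval of tested genes of the wider list (all but 1) in tumor-bearing against tumor-free mice, colored by role, with filled points for an adjusted p under 0.05 and a dashed line at the median of all tested genes. Cdkn1a (0.90), Slc3a2 (0.66) and Myc (0.63) have the largest called changes and Slc7a2 (-0.51) the lowest, while Eif5a, Mri1, Mtap and Enoph1 turn negative with median-ratio scaling or quantile normalization.

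Control + rFibcd1 replicate 2 stood apart in genes of this wider list. It had 46.8 TPM of Mat1a, a methionine adenosyltransferase, and 9.52 TPM of Otc, which consumes ornithine, where the other mice of its group had at most 0.636 and 0.170 TPM. Slc7a2 was at 17.2 TPM in this mouse and at 7.98 to 10.2 TPM in the others of the group. Without it, the Slc7a2 difference between tumor-bearing and tumor-free mice was -0.43 (adjusted p = 0.000617 by limma).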

How the data were processed

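RNA-seq was done on 17 diaphragms in 4 groups. The authors trimmed and filtered the reads, aligned them to GRCm38 and counted them in CLC Genomics Workbench, and deposited 1 table of TPM, in which each sample sums to 1000000. The labels name a stranded and the study's methods another library kit, so strandedness is not settled and antisense reads cannot be told apart. Reads per gene were estimated from the spacing of low TPM values and GENCODE M21 exon lengths (94.6% of symbols matched, and 81.0% to 83.8% of low values were whole within 0.02, where random values give 4%). They are approximate and were used for depth only. The labels call the samples biological replicates.

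Values were analysed as log2(TPM + 1) for the genes that reached 1 TPM in 3 or more mice, with limma 3.58.1 (R 4.3.3): 1 model of 4 groups, empirical Bayes with a trend, two-sided, Benjamini-Hochberg over 13305 genes, called at an adjusted p under 0.05. Changes of low genes are understated by the pseudocount. Intervals are unadjusted. Exact permutation tests used SciPy 1.17.1. The script was tested on simulated data. The alternatives were another pseudocount (0.1), no filter, median-ratio scaling, quantile normalization, rescaling without mitochondrially encoded genes, only the groups compared, the B cell score, a replicate block, Dunn's test, Amd1 and Amd2 summed, and leaving out each mouse.

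All 10 members were named. Of the wider list, genes called in LLC against Control, LLC + rFibcd1 against LLC or tumor-bearing against tumor-free mice were named, and the genes of the mouse that stood apart and those in the closing section were chosen after their values were seen. Members and lists, marker lists included, were chosen with earlier results of these data known. Of 5 macrophage markers, 4 had a row. A tested gene of the wider list is counted but otherwise not reported here.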

Additional observations from a re-analysis of the deposited data

Results flagged for a closer look

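In 72 groups of 4 or 5 mice tested for a single mouse far from the rest of its group, 7 values were found, where chance flags about 1 in 20 groups. Among members, Amd1 was at 29.9 TPM in LLC + rFibcd1 replicate 1 (the others 43.4 to 43.7), Sms at 16.7 TPM in Control replicate 3 (14.8 to 15.1) and Oaz2 at 96.2 TPM in Control replicate 5 (108 to 113). In the wider list, Mri1 was at 7.82 TPM in Control + rFibcd1 replicate 3 (8.61 to 8.74), Enoph1 at 5.79 TPM in Control replicate 2 (4.59 to 4.83), Atp13a2 at 10.96 TPM in Control + rFibcd1 replicate 1 (8.99 to 9.24) and Slc7a2 at 17.2 TPM in Control + rFibcd1 replicate 2 (7.98 to 10.2).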

How the results depend on the processing

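In LLC against Control, the number of members called (1) became 3 with median-ratio scaling (1 of them higher), 2 with quantile normalization, and 0 with the B cell score, the replicate block or Dunn's test, with which 9, 5 and 0 of all 13305 genes passed. In LLC + rFibcd1 against Control + rFibcd1 the count of 1 became 0 with median-ratio scaling, quantile normalization, rescaling without mitochondrially encoded genes, the replicate block and Dunn's test. In tumor-bearing against tumor-free mice the count of 2 became 4 with median-ratio scaling and 4 with quantile normalization (1 of them higher in each), where 4812 and 5144 of all 13305 genes passed, and 0 with the B cell score. Leaving out each mouse gave counts of 0 to 2, 1 to 2 and 2 to 3, respectively, in these comparisons. Among values with an unadjusted p under 0.05 in either fit, or called as deposited, signs turned for Sms in LLC against Control (-0.17 with median-ratio scaling, -0.22 with quantile normalization), for Oaz1 in LLC against Control (-0.16 and -0.12, and -0.081 without mitochondrially encoded genes), in LLC + rFibcd1 against Control (-0.011 with quantile normalization) and for the tumor over both treatments (-0.050 and -0.027). Of 538 values of members refitted in other settings, 50 uncalled ones changed sign, and 43 of 1071 without 1 mouse, among the former Amd1 (0.058 to -0.12) with median-ratio scaling and Smox (0.16 to -0.12) with quantile normalization in LLC against Control. The cause was not tested. Over all genes in LLC against Control, 3958 higher and 801 lower calls became 2078 and 1863 with median-ratio scaling and 1510 and 3175 with quantile normalization. Same-numbered mice showed no shared deviation (22 pairs, r -0.459 to 0.485, median -0.061, with 1 mouse closest to its own number), which gives no sign of pairing by number but cannot exclude it. With the replicate block, Sat1 was higher by 0.58 in LLC against Control (adjusted p = 0.0596 by limma), and Oaz1 by 0.16 in LLC + rFibcd1 against Control + rFibcd1 (adjusted p = 0.0534).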
